A study of Mus musculus with 35 samples.

Results

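Imprinted genes are transcribed mainly or only from the copy inherited from one parent. The 39 imprinted genes described here were taken by symbol from a fixed list, were linked to their ENSEMBL gene and, where the annotation merged that gene into a locus built from full-length PacBio reads (Iso-seq), to that locus. All 39 were found among the 55356 counted genes. The mice were adult C57BL/6J animals, and RNA depleted of ribosomal RNA was sequenced with strand information from brain, cerebellum, heart and colon of females and males, from ovary and from testis. The 29 RNA-seq libraries form 10 groups of 1 tissue and 1 sex, with 3 libraries in each except male heart, which had 2. No group received a treatment or carried a mutation. Total counts per library ran from 11742417 to 36194255 with a median of 24403774. The sources used here do not say whether libraries came from separate animals, so the p-values measure the spread between libraries, which may be partly technical. In an inbred strain the parental copies carry the same sequence, so the values below are the sum of both copies and say nothing about which copy was read.

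The parental marks are methyl groups set on DNA in the germ line, at imprinting control regions, and they are held through development by proteins such as ZFP57, TRIM28 and DNMT1. Imprinted genes lie in clusters in which a single control region acts on several genes, often with a long non-coding RNA that is made from one parental copy. Many paternally expressed genes promote growth of the fetus and placenta and many maternally expressed genes limit it, and a large group is known for roles in the brain, in feeding and in maternal behavior. The *H19*, *Igf2*, *Kcnq1ot1*, *Cdkn1c*, *Slc22a18* and *Phlda2* group spans chr7:142575529-143503150 on build GRCm38.p6. The *Snrpn*, *Ndn*, *Magel2*, *Mkrn3*, *Peg12* and *Ube3a* group, which corresponds to the human Prader-Willi and Angelman region, spans chr7:59228755-62464510. The *Peg3*, *Usp29* and *Zim1* group spans chr7:6671269-6967219, and the *Dlk1*, *Meg3*, *Rtl1*, *Rian*, *Mirg* and *Dio3* group spans chr12:109453464-110281097.

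Promoter sequence was read from the RefSeq table of build GRCm38.p6, which holds 250 bases before and 50 bases after each annotated start. It held 48 windows for 31 of the 39 genes, with *Snrpn* matched also through *Snurf*, whose reads are counted in the same locus. The ZFP57 recognition hexamer TGCCGC, or GCGGCA where it lies on the other strand, occurred in 10 of 45 distinct windows (22.2%) and in 11.6% of 31195 distinct windows of all genes, where windows that overlap on a strand by at least 150 of their 300 bases were counted once. The hexamer holds a CpG dinucleotide, and the median number of CpG was 13 in the windows of the imprinted genes and 7 in all windows. Its part in the share was not tested. The windows of *Nap1l5*, *Mest* and *Snurf* are shown as examples picked because they hold the hexamer and the genes were higher in the neural tissues below. Other genes higher there had windows without a match, among them *Magel2*, *Ndn*, *Dlk1*, *Usp29*, *Peg3*, *Rian* and *Inpp5f*. Capitals mark the hexamer on either strand. The *Nap1l5* window is chr6:58907077-58907376 on the minus strand, the *Mest* window is chr6:30737800-30738099 on the plus strand and the *Snurf* window is chr7:60005150-60005449 on the minus strand.
Nap1l5: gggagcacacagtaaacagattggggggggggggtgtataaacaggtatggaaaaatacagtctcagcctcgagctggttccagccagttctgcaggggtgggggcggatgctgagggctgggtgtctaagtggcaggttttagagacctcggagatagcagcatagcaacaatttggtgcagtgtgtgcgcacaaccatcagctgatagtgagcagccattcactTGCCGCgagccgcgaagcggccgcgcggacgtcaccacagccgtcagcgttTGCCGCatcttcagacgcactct
Mest: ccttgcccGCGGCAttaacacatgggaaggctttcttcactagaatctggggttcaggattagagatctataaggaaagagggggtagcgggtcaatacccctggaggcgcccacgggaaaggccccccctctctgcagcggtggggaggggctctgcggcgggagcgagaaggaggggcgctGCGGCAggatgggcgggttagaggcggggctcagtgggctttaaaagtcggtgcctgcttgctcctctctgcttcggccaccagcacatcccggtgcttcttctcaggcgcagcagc
Snurf: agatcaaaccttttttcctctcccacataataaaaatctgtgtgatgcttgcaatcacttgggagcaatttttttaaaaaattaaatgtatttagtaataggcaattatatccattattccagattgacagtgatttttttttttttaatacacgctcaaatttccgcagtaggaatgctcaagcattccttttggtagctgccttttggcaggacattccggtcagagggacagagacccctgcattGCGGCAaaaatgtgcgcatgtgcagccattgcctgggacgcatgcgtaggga
Of the 3, *Nap1l5* and *Mest* hold 2 matches each and *Snurf* holds 1. A match is a description of the letters and not a measured binding site. The hexamer was also found in a window of *Grb10*, *Igf2*, *Meg3*, *Nnat*, *Plagl1*, *Zdbf2* and *Zim1*, which gives 10 genes in all. These 10 did not share a tissue of highest level, which was brain or cerebellum for 7 of them, ovary for *Grb10* and *Plagl1* and testis for *Zdbf2*.

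Levels are given as FPKM, which is here the read count divided by library size (as CPM) and by the exon length of the gene in kilobases. That length joins all annotated exons and can exceed the longest transcript, as for *Usp29* (18078 against 7540 bases) and *Mirg* (7292 against 3822). It is near the longest transcript for *Peg3* (8673 against 8664) and *Meg3* (4402 against 4400). Ratios between genes depend on this choice. Log2 differences and calls come from edgeR with TMM scaling of the libraries, which FPKM do not carry. On library totals the median difference of the 38 genes tested would shift by 0.19 in neural tissues against heart and colon, -0.13 in brain against cerebellum, -0.53 in heart against colon, 0.44 in ovary and -0.15 in testis against the somatic tissues and -0.64 in testis against ovary. A mean of at least 1 FPKM in some tissue was reached by 35 of the 39 genes, and 18 reached it in all 6 tissues. Of the 35, 20 (57.1%) were highest in brain or cerebellum, against 24.3% of the 24678 genes of any kind that reached 1 FPKM. Testis was the tissue of highest level for 2 of the 35 (5.71%), *Asb4* and *Zdbf2*, against 28.5% of all genes. Heart was highest for 4, colon for 3 and ovary for 6. The median tissue specificity index tau, which is 0 for equal levels in all tissues and 1 for a single tissue, was 0.756 for the 35 genes and 0.734 for all genes. *Mkrn3*, *Zim1*, *Phlda2* and *Peg13* stayed under 1 FPKM in every tissue. *Peg13*, a non-coding RNA within *Trappc9*, had 2 counts over the 29 libraries. Of its exon bases 99.7% lie inside exons of the *Trappc9* locus on the same strand, and of 553 genes wholly covered in that way 0 had at least 29 counts, so its level was not measured by this counting. The same bases make up 53.7% of the exon length by which *Trappc9* counts are divided, so that *Trappc9* FPKM are too low where such reads were dropped. *Peg13* did not pass the filter on low counts, and the other 38 genes were tested.

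**Figure D1:**
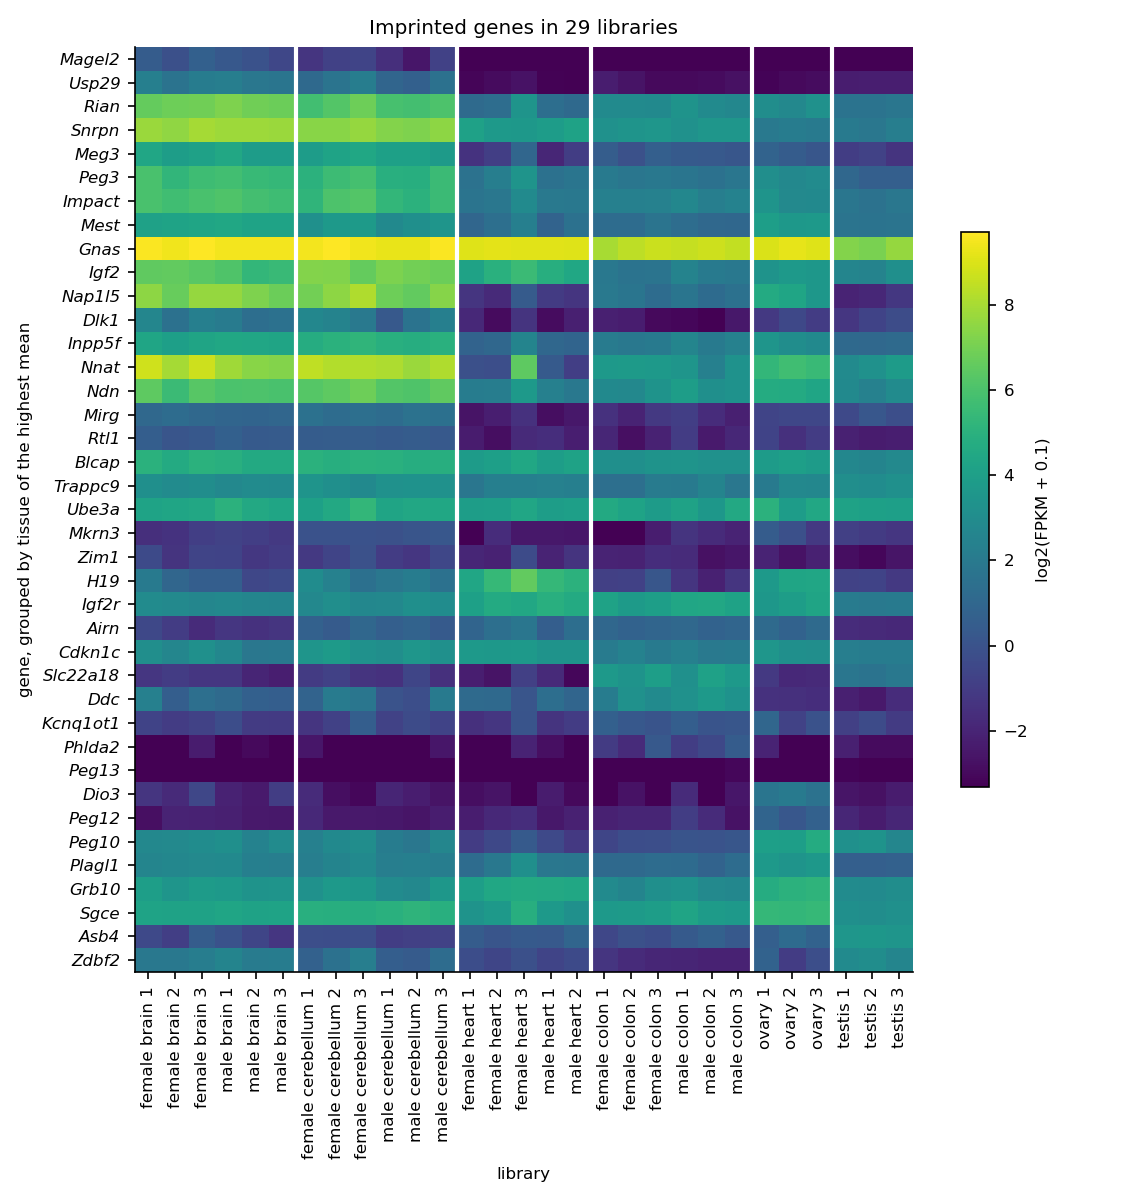
The color gives log2(FPKM + 0.1) of each of the 39 genes (vertical axis, grouped by the tissue of their highest mean) in each of the 29 libraries (horizontal axis, white lines between tissues). The upper block of genes is bright in the 12 brain and cerebellum libraries, *Gnas* is bright throughout, and *Nnat* is bright in a single heart library.

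Before the comparisons, a heart library has to be set apart. Female heart 3 had a summed level of 3365 FPKM over the 5 adipocyte markers *Adipoq*, *Plin1*, *Cidec*, *Cfd* and *Lep*, against 0.589 to 7.53 FPKM in the other 4 heart libraries. *Adipoq* stood at 695 FPKM there, and the 5 cardiomyocyte markers summed to 8226 FPKM against 16054 to 18579 FPKM. Neuron markers were at 696 to 1654 summed FPKM in brain and cerebellum and at most 23.6 FPKM in all other libraries. Meninges and fibroblast markers were at 1328 summed FPKM there against 477 to 668 FPKM. Without this library, 34 of the 38 genes were called in brain and cerebellum against heart and colon (35 with it), 30 in heart against colon (28) and 25 in ovary against the female somatic tissues (26). The calls that changed were *Phlda2* in the first, *Dlk1*, *Ndn*, *Nnat* and *Ube3a* in the second and *Dlk1*, *Mirg* and *Trappc9* in the third. The log2 differences moved by more than 1.5-fold only for *Nnat* and *Phlda2* in each of these comparisons, and the median move was 0.07, 0.15 and 0.07. Other values below that rest on heart include this library unless stated.

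In brain and cerebellum against heart and colon, 35 of the 38 genes tested were called, 26 higher and 9 lower. Over all 29911 genes tested, 64.5% were called in this comparison, 38.2% higher and 26.3% lower, and the share of the 38 genes was above this background for the higher and near it for the lower calls. The median log2 difference was 1.93 for the 38 genes and 0.11 for all genes. Paternally expressed genes were mostly higher, with 19 higher and 2 lower of 22 tested and a median of 2.98. Maternally expressed genes were divided, with 6 higher and 5 lower of 13 and a median of 0.20. The classes follow the known parental copy, for *Inpp5f* and *Blcap* of a single isoform only and for *Ube3a* and *Trappc9* only in neurons or brain. *Grb10*, *Gnas* and *Ddc* were in neither class. Counts cover all transcripts of a gene, so the classes sort genes and not reads. Whether the 2 classes differ was not tested. In whole tissue, fewer cells of a type and less RNA per cell cannot be told apart.

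**Figure D2:**
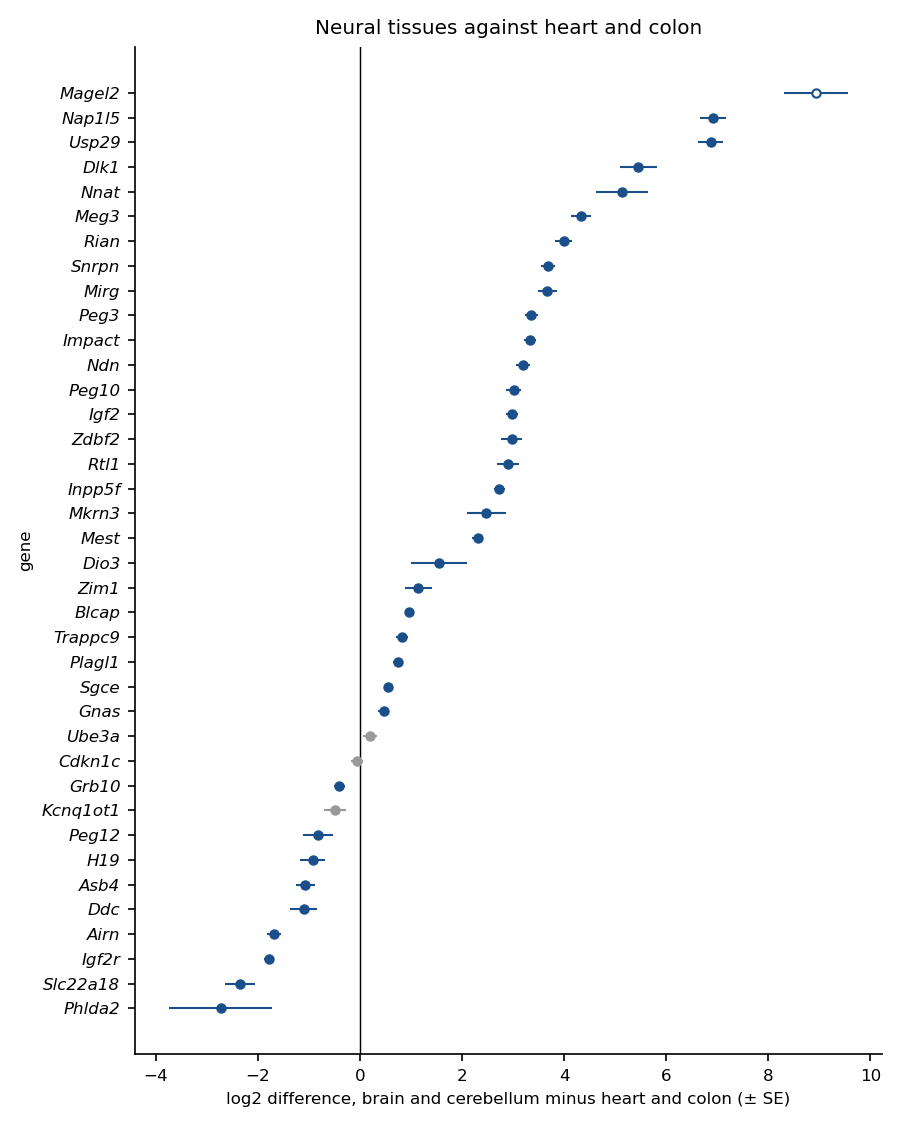
Points give the log2 difference of brain and cerebellum minus heart and colon for the 38 tested genes, bars its standard error, blue points genes called at an adjusted p under 0.05 and gray points the others. The open point is *Magel2*, which had no count in heart or colon, so that its fitted value is not a measured fold. From *Gnas* upward 26 genes lie above 0 and are called.

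Of the 6 genes of the Prader-Willi and Angelman region, *Snrpn*, *Ndn*, *Magel2* and *Mkrn3* were higher in neural tissues, *Peg12* was lower (-0.82; -0.63 and not called on library totals) and *Ube3a* was not called. *Snrpn*, which encodes a protein of the splicing machinery and was counted together with *Snurf* and Gm38393, stood at 190, 220 and 246 FPKM in brain (lowest, median and highest of 6 libraries) and at 145, 171 and 198 FPKM in cerebellum. Heart libraries held 12.4 to 18.4 FPKM, colon 9.43 to 11.6, ovary 3.77, 4.39 and 3.91 and testis 3.94, 3.44 and 4.65 FPKM. No neural library overlapped any other, and *Snrpn* was lower in both gonads than in every somatic library. Its log2 difference was 3.68 ± 0.13 (SE, adjusted p = 1.61e-18) for neural tissues against heart and colon, -4.09 ± 0.24 for ovary against the female somatic tissues and -3.49 ± 0.23 for testis against the male ones. *Ndn*, a protein that restrains division and death of neurons, was at 47.9 to 89.2 FPKM in brain and 70.3 to 114 FPKM in cerebellum. Unlike *Snrpn*, it held 20.3, 24.9 and 25.8 FPKM in ovary, above every heart and colon library. The ratio of *Snrpn* to *Ndn* had a median of 3.38 in brain, 2.02 in cerebellum and 0.177 in ovary.

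*Magel2*, a partner of ubiquitin ligases in the hypothalamus, was read only in the neural libraries. It had 67 to 187 counts in the brain libraries (0.593 to 1.48 FPKM) and 8 to 67 in the cerebellum libraries (0.0731 to 0.534 FPKM). All 17 other libraries had 0 counts. Taking 3 counts in the shallowest library of a tissue as the limit, which is 0.0552 FPKM in colon and 0.0331 FPKM in heart, the brain mean of 1.02 FPKM was at least 18.4-fold higher than colon and at least 30.8-fold higher than heart. Brain exceeded cerebellum by 1.69 ± 0.38 on the log2 scale (adjusted p = 0.00418). Hypothalamus markers were at 2.2 to 63.9 summed FPKM in brain and 0.946 to 2.51 in cerebellum, and 4 of 5 tested were higher in brain. Their part in this difference was not tested. *Mkrn3*, a zinc-finger ligase known as a brake on puberty, was low throughout, with 0.839 to 1.05 FPKM in cerebellum, 0.243 to 0.486 in brain and 0.348 to 1.28 in ovary. *Peg12* lies beside these genes but peaked elsewhere, in ovary. *Ube3a*, the ubiquitin ligase lost in Angelman syndrome, had nearly equal levels in all tissues, with means from 16.7 ± 2.52 (SD, n = 5) FPKM in heart to 23.7 ± 7.77 (n = 6) FPKM in cerebellum and a tau of 0.166. None of the 6 tissue comparisons called it, with differences from -0.27 to 0.42 on the log2 scale, while on library totals it was called in neural tissues (0.41, adjusted p = 0.0165). A second locus at the 3′ end of *Ube3a* was 0.88 ± 0.16 higher in neural tissues (adjusted p = 3.48e-05), and 61.2% of its exon bases lie opposite an exon of another gene, the antisense RNA *Snhg14*.

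The *Peg3* group showed a difference between neighbors that share a start region. *Peg3* encodes a zinc-finger protein known for its part in maternal care, *Usp29* encodes a ubiquitin protease, and *Zim1* encodes another zinc-finger protein. *Peg3* and *Usp29* are read away from each other from starts that lie 164 bases apart, and the window around the *Usp29* start, chr7:6730333-6730632 on the plus strand, holds both. It is shown with the first base of *Peg3* (position 6730419, on the minus strand) and the first base of *Usp29* (position 6730583) in capitals.
Usp29 and Peg3: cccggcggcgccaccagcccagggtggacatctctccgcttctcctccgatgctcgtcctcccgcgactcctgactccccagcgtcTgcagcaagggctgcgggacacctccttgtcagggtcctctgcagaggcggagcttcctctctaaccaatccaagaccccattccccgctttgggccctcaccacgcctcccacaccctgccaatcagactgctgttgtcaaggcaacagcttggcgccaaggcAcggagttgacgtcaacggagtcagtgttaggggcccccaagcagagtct
This window holds 17 CpG dinucleotides and no TGCCGC hexamer. *Peg3* stood at 37.8 to 63.2 FPKM in brain and 28.8 to 58.8 in cerebellum, *Usp29* at 3.05 to 4.82 and 1.48 to 4.48 FPKM. Both were higher in neural tissues, by 3.36 ± 0.13 for *Peg3* and 6.87 ± 0.24 for *Usp29* (log2, adjusted p = 9.89e-18 and 8.48e-19). Outside the neural tissues *Peg3* kept 6.67 to 8.53 FPKM in ovary, where *Usp29* had 3, 12 and 17 counts (0.0092 to 0.0335 FPKM). The median ratio of *Peg3* to *Usp29* was 12.5 in brain. In ovary it was 182 with 0.01 FPKM added to both genes and 250 without, so that its size rests on that constant and on few *Usp29* counts, while the 3 ovary ratios lay above all 12 neural ones. In testis the ratio was 11.4 (12.3 without the constant), with *Peg3* at 1.43 to 1.91 FPKM and *Usp29* at 0.105 to 0.117 FPKM. *Zim1* reached at most 0.84 FPKM, in a cerebellum library, and was 1.14 ± 0.27 higher in neural tissues.

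**Figure D3:**
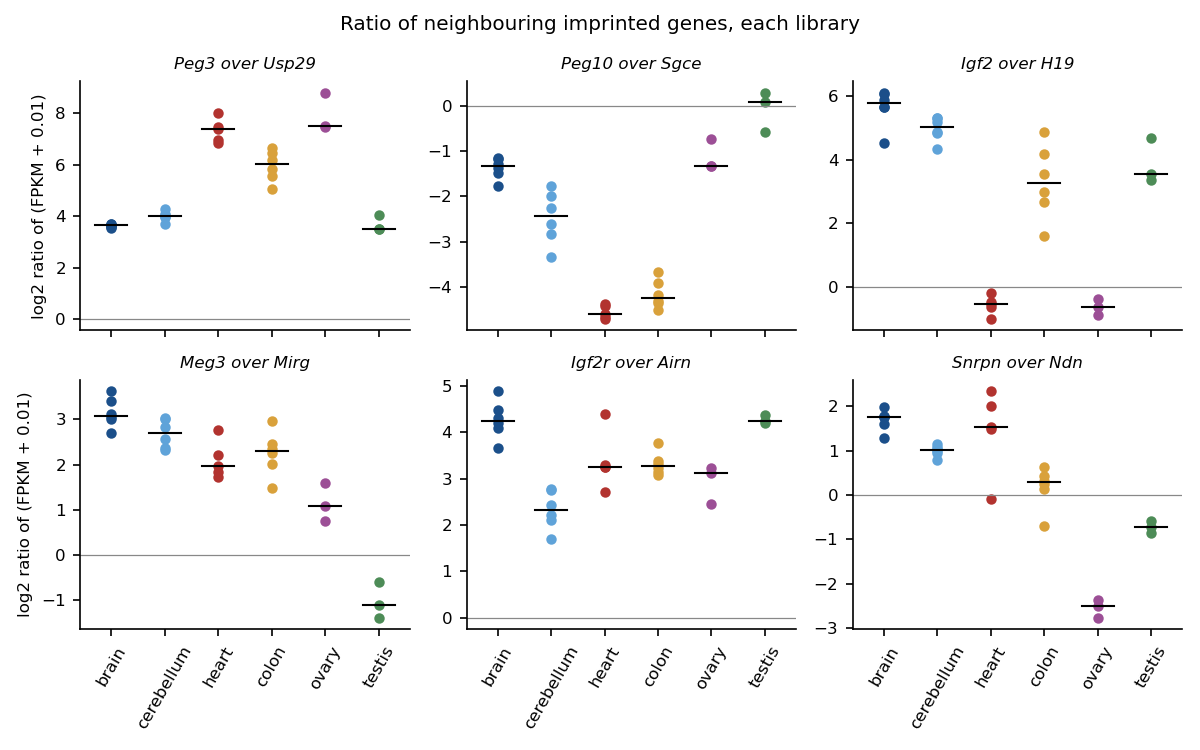
Each panel gives the log2 ratio of (FPKM + 0.01) for a pair of neighboring genes, with a point for each library, a black line at the tissue median and colors for the 6 tissues. *Peg3* over *Usp29* is higher in heart, colon and ovary than in brain, cerebellum and testis, *Igf2* over *H19* falls below 0 only in heart and ovary, and *Meg3* over *Mirg* falls below 0 only in testis. Where a ratio crosses 0 depends on the exon lengths used.

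Several genes outside these clusters belonged to the same neural group. *Nap1l5*, a relative of nucleosome assembly proteins, had 101 to 204 FPKM in brain, 95.2 to 285 FPKM in cerebellum and 0.148 to 0.326 FPKM in testis. Its highest tissue mean was 745 times its lowest, and the log2 difference of neural tissues against heart and colon was 6.92 ± 0.25 (adjusted p = 1.93e-18). Ovary, with 11.8, 20.2 and 25.4 FPKM, lay between. *Nnat*, which encodes neuronatin, a small membrane protein that acts in calcium handling and hormone secretion, stood at 156 to 435 FPKM in brain and 214 to 357 FPKM in cerebellum. Its host *Blcap* ran from 23.8 to 32.1 FPKM in brain and from 5.89 to 6.97 FPKM in testis, and was 0.96 ± 0.07 higher in neural tissues. *Impact*, a regulator of translation under amino acid shortage, had 49.9 to 70.4 FPKM in brain and 2.87 to 7.46 FPKM in heart and testis. *Inpp5f*, an inositol phosphatase, was higher in cerebellum (26.8 to 36.4 FPKM) than in brain (16.4 to 21.9 FPKM), with no overlap and a difference of -0.50 ± 0.13 (brain minus cerebellum, adjusted p = 0.00385). *Mest*, an enzyme of the hydrolase family, showed the opposite, with 17.6 to 21.8 FPKM in brain against 7.13 to 13.8 FPKM in cerebellum (1.02 ± 0.14, adjusted p = 1.69e-06). *Trappc9*, a subunit of a vesicle tethering complex, and *Gnas*, the G protein subunit behind cAMP signaling, were broad. *Gnas* was the highest of the 39 genes in every tissue, at 744 ± 56.4 FPKM in brain (SD, n = 6) and 164 ± 30.9 FPKM in testis (n = 3).

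The *Dlk1* to *Dio3* cluster holds paternally expressed protein-coding genes and a row of maternally expressed non-coding RNAs. The non-coding *Meg3*, *Rian* and *Mirg* were all higher in neural tissues, by 4.34 ± 0.20, 3.99 ± 0.17 and 3.67 ± 0.19 on the log2 scale (adjusted p = 1.43e-16, 2.98e-17 and 1.76e-15). *Rian* was the most abundant of them, with 99.8 to 148 FPKM in brain and 54.7 to 113 FPKM in cerebellum, and *Meg3* had 14.5 to 22.3 and 13.6 to 21.8 FPKM. *Mirg* reached 1.74 to 2.87 FPKM. The 3 did not keep a fixed proportion, since the median ratio of *Meg3* to *Mirg* was 8.47 in brain and 0.463 in testis. *Mirg* was 0.80 ± 0.24 higher in testis than in the male somatic tissues (adjusted p = 0.00523; 0.63 and 0.0533 without testis 2, 0.64 and 0.0529 on library totals), while *Meg3* and *Rian* were lower (-2.80 ± 0.32 and -2.48 ± 0.26). *Dlk1*, a membrane protein that holds back fat cell differentiation, and *Rtl1*, derived from a retrotransposon, are read from the paternal copy. *Dlk1* had 2.48 to 6.28 FPKM in brain and at most 0.288 FPKM in heart and colon (5.45 ± 0.36). *Rtl1* had 0.993 to 1.48 FPKM in brain and was 2.90 ± 0.22 higher in neural tissues. *Dio3*, the deiodinase that inactivates thyroid hormone at the far end of the cluster, behaved differently and had 2.96, 3.22 and 4 FPKM in ovary against at most 0.578 FPKM in any other library. It was 5.07 ± 0.54 higher in ovary than in the female somatic tissues (adjusted p = 1.96e-08).

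*Igf2* and *H19* lie beside each other and are known to be read from opposite parental copies in most tissues. *Igf2*, the fetal growth factor, was counted on a single short Iso-seq transcript of 1657 bases at its 3′ end, together with Gm49394. It had 159, 149 and 100 FPKM in the female cerebellum libraries and 141, 124 and 111 FPKM in the male ones. In brain it had 93.2, 95.1 and 81.9 FPKM in females and 69.7, 39.8 and 44.9 FPKM in males. Every cerebellum library was above every brain library, and the difference of brain minus cerebellum was -0.82 ± 0.15 on the log2 scale (adjusted p = 0.000209). Markers of choroid plexus, the tissue that makes cerebrospinal fluid, were also higher in cerebellum, at 3056, 3953 and 3312 summed FPKM in the female and 1046, 3907 and 2614 in the male libraries. In brain they stood at 1016, 28.8 and 1591 in the female and 461, 47.2 and 49.8 in the male libraries, in the order of the *Igf2* values above. The 3 brain libraries with more of these markers had 69.7 to 93.2 FPKM of *Igf2*, and the 3 with fewer had 95.1, 39.8 and 44.9 FPKM. The brain library with the highest *Igf2*, female brain 2, had the lowest choroid plexus markers (28.8) and the highest markers of meninges and fibroblasts in brain (161 summed FPKM, against 53.3 to 121 in the other 5). In cerebellum the meninges and fibroblast markers were at 149 to 284. The part of the choroid plexus, meninges and fibroblast markers in these values was not tested.

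*H19*, a non-coding RNA that restrains growth, was highest in heart, with 20.9, 42.4 and 94.4 FPKM in the female and 41.7 and 33.5 FPKM in the male libraries. Colon had 0.13 to 1.02 FPKM, and the difference between the 2 tissues was 7.29 ± 0.39 on the log2 scale (adjusted p = 2.01e-14). Without female heart 3, which had the 94.4 FPKM, the heart mean went from 46.6 to 34.6 FPKM and the difference was 7.12. Ovary was next with 13, 20.3 and 21.2 FPKM. *Igf2* was also higher in heart than in colon, by 3.43 ± 0.18 (3.39 without female heart 3). Heart and ovary were the only tissues in which the ratio of *Igf2* to *H19* fell under 1 (medians of 0.689 and 0.651, and 0.706 for heart without that library), against 54.5 in brain. The receptor *Igf2r*, which clears IGF2 from the cell surface, was highest in heart (16.9 to 29.8 FPKM) and colon (13.8 to 22.5 FPKM) and was lower in neural tissues (-1.78 ± 0.10, adjusted p = 2.22e-14). *Airn*, the antisense RNA that silences *Igf2r* on the paternal copy, was lower in brain (0.204 to 0.605 FPKM) than in cerebellum (1.18 to 1.94 FPKM), with a log2 difference of -1.98 ± 0.20 (adjusted p = 3.19e-08). *Igf2r* itself was at 5.82 to 7.82 FPKM in brain and 6.35 to 8.97 FPKM in cerebellum, a difference of -0.07 ± 0.14 that was not called. *Grb10*, an adaptor that dampens insulin and IGF receptors, had 26.4, 33.6 and 35.2 FPKM in ovary and 15.9 to 23.7 FPKM in heart. *Cdkn1c*, an inhibitor of the cell cycle, lay between 10.3 and 13 FPKM in heart and between 3.76 and 5.37 FPKM in colon (1.98 ± 0.17). *Plagl1*, a zinc-finger factor that acts on other imprinted genes, was highest in ovary (10.7 to 12.8 FPKM), above every other library.

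**Figure D4:**
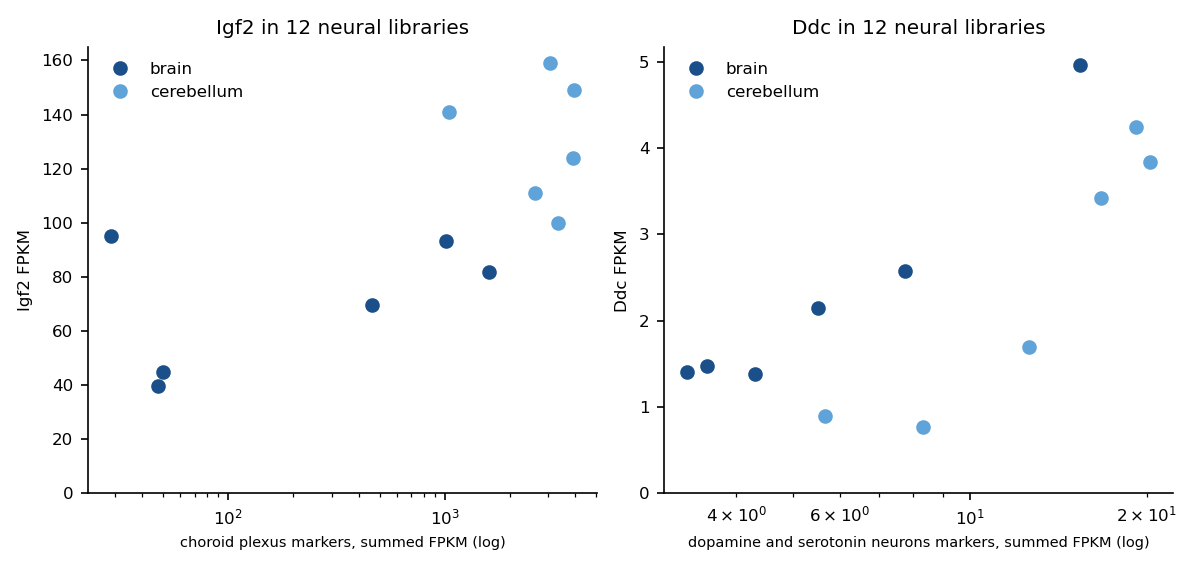
Points are the 12 brain and cerebellum libraries. The left panel gives *Igf2* in FPKM against the summed FPKM of 6 choroid plexus markers, the right panel *Ddc* in FPKM against that of 6 markers of dopamine and serotonin neurons, both on log horizontal axes. *Igf2* is at 100 FPKM or more in all cerebellum libraries and female brain 2 lies apart with few choroid plexus markers (28.8), while the 4 libraries with the most *Ddc* (3.42 to 4.96 FPKM) have markers of 15.4 to 20.3 FPKM.

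Fewer genes separated brain from cerebellum. Of the 38 genes, 17 were called in brain against cerebellum, 10 higher and 7 lower, where 26.1% of all genes were called, 15.3% higher and 10.8% lower. On library totals there were 5 higher and 7 lower, against 11.0% and 13.6% of all genes. Without male cerebellum 2 the count was 11. *Sgce*, a sarcoglycan mutated in myoclonus dystonia, was higher in cerebellum (28.2 to 35.7 FPKM against 18 to 20.2 in brain). *Zdbf2* was higher in brain (3.63 to 5.7 FPKM) than in cerebellum (1.24 to 4.62 FPKM), with overlap. *Ddc*, the decarboxylase that makes dopamine and serotonin, ranged from 0.768 to 4.24 FPKM in cerebellum and from 1.38 to 4.96 FPKM in brain. Markers of dopamine and serotonin neurons ran from 5.66 to 20.3 summed FPKM in cerebellum, and the 3 libraries there with the most *Ddc* (female 2, female 3 and male 3) also had the most of these markers.

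In heart against colon, 28 of the 38 genes were called, 18 higher and 10 lower, and 53.9% of all genes were, 25.0% higher and 28.9% lower. On library totals without scaling there were 10 higher and 11 lower, against 15.6% and 41.0% of all genes. Cell type markers moved with these calls. In heart 5 of 5 cardiomyocyte markers were higher, and 5 of 5 colon epithelium and 5 of 5 enteroendocrine markers were lower. So were 6 of 6 neuron, 4 of 5 enteric neuron and 4 of 5 smooth muscle markers. The part of all these markers was not tested. Of the maternally expressed genes 12 of 13 were called, 7 of them higher in heart and 5 in colon. On library totals the calls of *Zim1*, *Asb4* and *Trappc9*, all higher in heart, were lost. *Slc22a18*, a transporter of organic cations, had 9.29 to 17.4 FPKM in colon and at most 0.568 FPKM in heart, ovary and the neural tissues (-5.97 ± 0.40 for heart minus colon, adjusted p = 1.59e-12). Testis held 3.01 to 3.61 FPKM of it. *Ddc* was also highest in colon, at 4.37 to 12.8 FPKM, where enterochromaffin cells make serotonin. *Phlda2*, a brake on placental growth in the same cluster as *Slc22a18*, had 91 counts over the 29 libraries. It stood at 0.209 to 1.27 FPKM in colon and at most 0.149 FPKM in any other library, and was lower in heart (-3.71 ± 1.02, adjusted p = 0.0031; -5.54 without female heart 3, which had 4 counts). *Kcnq1ot1*, the antisense RNA of that cluster, had 0.936 to 1.47 FPKM in colon and was lower in heart (-0.96 ± 0.32, adjusted p = 0.0133), a call that was lost without male heart 1 (-0.85, adjusted p = 0.075).

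In female heart 3 several imprinted genes stood above the other hearts. *Nnat* had 89.6 FPKM there and 0.8, 0.777, 1.2 and 0.433 FPKM in the other 4 hearts. *Rian* had 10.7 FPKM against 2.07 to 2.54, *Peg3* 10.7 against 2.78 to 4.75 and *Plagl1* 8.9 against 2.32 to 3.67 FPKM. Of the 21 imprinted genes at a mean of 1 FPKM or more in the other 4 hearts, which leaves out *Nnat*, 15 were highest in female heart 3 and 9 were at least 2 times the mean of the others. Of the 12596 genes of any kind at that level, 60.4% were highest in this library and 20.4% were at least 2 times the mean. *Gnas*, *Grb10* and *Igf2r* were at 1.02, 1.15 and 0.919 times the mean of the others. With this library the difference of *Nnat* between heart and colon was -0.77 ± 0.68 (adjusted p = 0.376), and without it -3.04 (adjusted p = 7.43e-10). *Ndn* gave -0.27 (adjusted p = 0.252) and -0.44 (adjusted p = 0.0394). In neural tissues against heart and colon, *Nnat* gave 5.13 with and 6.26 without this library. The adipocyte markers and the meninges and fibroblast markers of this library move with these values, and their part was not tested. At low levels it also had the most Leydig and theca markers (9.29 summed FPKM against 2.21 to 3.63), neuron markers (3.19 against 1.72 to 1.97), dopamine and serotonin neuron markers (3.38 against 0.873 to 1.22) hypothalamus markers (1.64 against 0.0102 to 0.527), pituitary markers (0.89 against 0.0491 to 0.182), choroid plexus markers (3.49 against 1.32 to 2.19) and granulosa and luteal markers (0.744 against 0.137 to 0.377). It had the fewest smooth muscle markers (671 against 1164 to 1466).

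**Figure D5:**
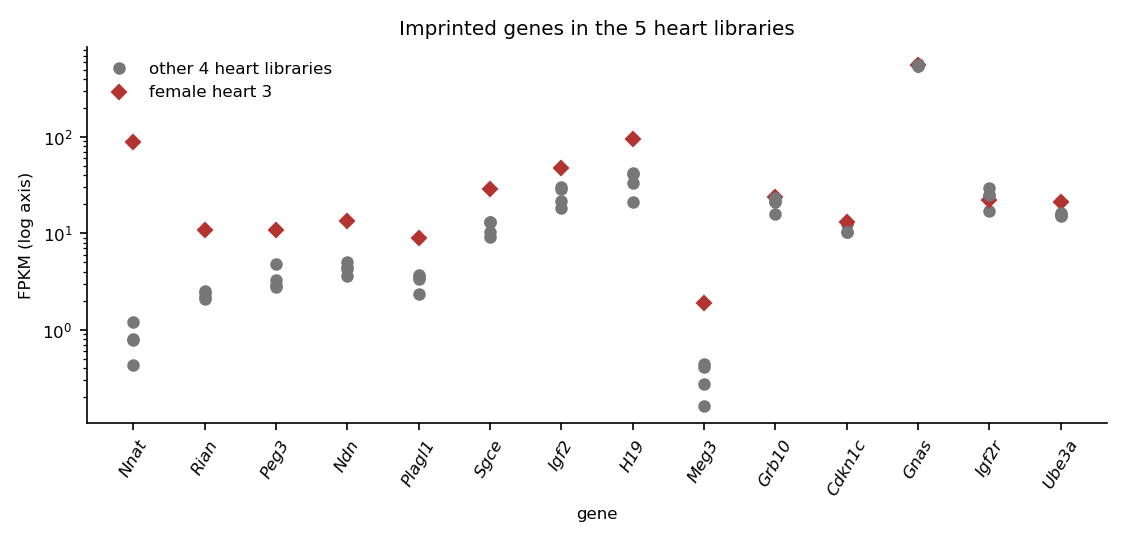
FPKM on a log axis of 14 imprinted genes in the 5 heart libraries, with female heart 3 as red diamonds and the other 4 as gray circles. *Nnat* is 89.6 FPKM in female heart 3 against at most 1.2 FPKM in the others, while *Gnas*, *Grb10* and *Igf2r* lie at or near them.

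In ovary against the female somatic tissues, 26 of the 38 genes were called, 9 higher and 17 lower, against 41.9% of all genes, 21.8% higher and 20.0% lower. On library totals there were 12 higher and 11 lower, against 35.6% and 12.7% of all genes. Beside *Dio3*, the genes that were higher included the retrotransposon-derived *Peg10*, needed for the placenta, at 16.3, 15.7 and 25.6 FPKM (2.67 ± 0.18, adjusted p = 6.95e-12). *Peg12*, a relative of a WNT pathway protein, had 1.72, 1.08 and 1.55 FPKM and at most 0.421 FPKM in every other library (2.94 ± 0.33, adjusted p = 5.29e-08). *Sgce*, which lies beside *Peg10*, had 39.6 to 42.5 FPKM in ovary and was 0.69 ± 0.12 higher. The pair differed in heart and colon, where *Sgce* stayed at 9.15 to 28.9 FPKM and *Peg10* at 0.343 to 1.2 FPKM, so that the median ratio of *Peg10* to *Sgce* was 0.042 in heart and 0.399 in ovary. Ovary libraries also held 1103 to 1371 summed FPKM of Leydig and theca cell markers and 249 to 335 of granulosa and luteal markers, and 5 of 5 markers of both kinds were higher. Markers of other cells also moved with these calls, with 5 of 5 adipocyte markers (23.7 to 363 summed FPKM in ovary), 4 of 5 smooth muscle markers (1095 to 2488) and 6 of 7 meninges and fibroblast markers (869 to 1286) higher and 5 of 6 neuron markers lower. Their part was not tested.

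In testis against the male somatic tissues, 27 of the 38 genes were called, 6 higher and 21 lower. Over all genes 65.7% were called, 39.8% higher and 25.9% lower, so that these genes were more often lower than higher where genes in general were more often higher. The median difference was -1.11 for the 38 genes and 0.15 for all genes. The genes that were higher were *Asb4*, *Zdbf2*, *Slc22a18*, *Peg10*, *Mirg* and *Trappc9*. *Asb4*, a ubiquitin ligase adaptor, had 11.6, 12 and 11 FPKM in testis and at most 2.24 FPKM in every other library (3.92 ± 0.23, adjusted p = 6.14e-14). *Zdbf2*, a zinc-finger gene, had 7.58, 8.18 and 6.04 FPKM, above every other library (3.16 ± 0.25, adjusted p = 1.87e-11). *Peg10* was 2.24 ± 0.19 higher, at 6.21 to 10.1 FPKM, below every ovary library. Its log2 difference between testis and ovary was -0.54 ± 0.26 with TMM scaling (adjusted p = 0.068) and -1.17 ± 0.31 on library totals (adjusted p = 0.0017). Spermatid markers were at 18334 to 21926 summed FPKM in testis and at most 25.3 FPKM elsewhere. Testis also held 704 to 919 summed FPKM of Leydig and theca markers, 146 to 188 of adipocyte markers and 21.1 to 21.8 of neuron markers. The part of these markers was not tested. In testis against ovary, 26 of the 38 genes were called, 7 higher and 19 lower, and of all genes 64.3% were called, 37.8% higher and 26.5% lower. The most different of these were *Nap1l5* (-5.79 ± 0.46), *Dio3* (-4.90 ± 0.85) and *H19* (-4.69 ± 0.47) on the lower side and *Slc22a18* (4.47 ± 0.46), *Zdbf2* (3.63 ± 0.38) and *Asb4* (3.33 ± 0.35) on the higher side. The comparisons that share ovary or testis libraries are not independent.

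Between males and females, edgeR called 0 of the 38 genes in brain, cerebellum, heart and colon, where 0.0368%, 0.0301%, 0.0635% and 0.324% of all genes were called. At an unadjusted p under 0.05 there were 3, 5, 8 and 4 of the 38 genes (7.89%, 13.2%, 21.1% and 10.5%), against 4.83%, 3.06%, 9.65% and 8.85% of all genes, and DESeq2 called 0 in each tissue. The 3 in brain were *Cdkn1c*, *H19* and *Igf2*, all lower in males, with differences of -0.79 ± 0.23, -1.41 ± 0.43 and -0.75 ± 0.22 and adjusted p of 0.729, 0.811 and 0.754. The 2 male brain libraries with the lowest *Igf2* had choroid plexus markers of 47.2 and 49.8 summed FPKM. Their meninges and fibroblast markers were the lowest of brain (53.3 and 59.4). In female brain 2, with the highest *Igf2*, the sums were 28.8 and 161. The part of these markers was not tested. In heart the smallest adjusted p was 0.161, for *Nnat* (-4.57 ± 1.17), which is the gene with 89.6 FPKM in female heart 3. Leaving out female heart 1 or female heart 2 brought 1 gene past the threshold in heart. The test of sex by tissue over the 4 tissues called 0 of the 38 genes with edgeR, as did DESeq2, where edgeR called 0.0167% of all genes. At an unadjusted p under 0.05 there were 4 of the 38 (10.5%), against 6.77% of all genes.

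Other genes of imprinting and of the IGF pathway were taken from fixed lists. The 41 other imprinted genes were counted in 39 loci, since *H13* and *Mcts2* share a locus, as do *Cd81* and *Tssc4*, and *Snurf* is counted with *Snrpn*. Of the 38 loci without *Snrpn*, 20 were higher and 14 lower in neural tissues (38.2% and 26.3% of all genes), with a median of 0.71. In testis against the male somatic tissues they had 16 higher and 13 lower (39.8% and 25.9% of all genes) and a median of -0.07. The largest differences among them were in *Rasgrf1*, an exchange factor for RAS (10.35, 47.7 FPKM in brain and 0.0145 FPKM in heart), in the potassium channel *Kcnk9* (8.59) and in *Th*, the enzyme of dopamine synthesis (9.05). The largest on the lower side were *Tfpi2* (-5.77), *Kcnq1* (-5.04) and *Pon3* (-2.90). Of 15 genes of imprint maintenance, 7 were higher and 3 lower in neural tissues against heart and colon (38.2% and 26.3% of all genes), with a median of 0.28. In ovary 10 of the 15 were higher and 1 lower, against 21.8% and 20.0% of all genes, and in testis 6 were higher and 5 lower, against 39.8% and 25.9%. Of 5 oocyte markers, a set that shares a gene with this list, 4 were higher and 1 lower in ovary. Their part was not tested here. *Zfp57* had 6.88 FPKM in ovary and 5.82 FPKM in testis against 0.417 to 1.02 FPKM in the other tissues (means), and was 2.70 ± 0.23 higher in ovary and 3.54 ± 0.23 higher in testis. *Uhrf1*, which guides DNMT1 to replicated DNA, was 2.57 ± 0.22 and 4.79 ± 0.23 higher. Of 20 genes of the IGF axis, 19 were tested, with 6 higher and 12 lower in neural tissues, against 38.2% and 26.3% of all genes, and a median of -0.96. *Igf1* was lower (-2.57, with 10.7 FPKM in heart and 1.56 FPKM in brain), opposite to *Igf2*, and *Igfbp2*, a binding protein for both, was 5.40 higher. *Igf2bp3*, which binds *Igf2* mRNA, stood at 36.5 FPKM in testis and at most 1.47 FPKM in the other tissues (5.32 ± 0.18 against the male somatic tissues).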

How the data were processed

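For 29 RNA-seq libraries the authors deposited whole-number read counts per gene, without normalization, on a GRCm38.p6 annotation of Iso-seq loci completed with ENSEMBL genes, some of which overlap a locus on the same strand. The submitters' processing notes name FastQC 0.11.8, MultiQC 0.9, HISAT2 2.0.5 and featureCounts 1.6.3. Reads that fell on exons of 2 genes of the same strand appeared to be dropped, since 0 of 553 genes wholly covered in this way had at least 29 counts, against 278 of 385 covered on the opposite strand. FPKM was computed as CPM (over the library total) per kilobase of exon union. Differences were tested with edgeR 4.0.16 (R 4.3.3), the quasi-likelihood test with TMM scaling and the filter on low counts by group, in a single fit of 29 libraries, with Benjamini-Hochberg adjustment over 29911 genes and a threshold of 0.05. Ratios between neighboring genes used FPKM + 0.01. In 5 draws of simulated counts, with 200 changed genes taken from those with a mean count over 30, the test called 99% to 100% of 4-fold and 84% to 89% of 2-fold changes for neural tissues against heart and colon (3.66% to 6.93% false calls), and 86% to 93% and 32% to 51% for sex in brain (2.24% to 6.71%). These replaced earlier single draws, of which the one with the lowest minimum count recovered fewer 4-fold changes for sex in brain than this range. In the 5 draws all other genes had the same mean in every group, unlike the tissues compared here. The rates may not hold in neural tissues against heart and colon, where 64.5% of all genes were called. The 39 genes and the gene lists were chosen with earlier results of these data known, and all 39 are named. Of other imprinted genes, those with the largest differences are named (up to 3 per direction), and of the imprint maintenance and IGF axis lists, genes called with a log2 difference of 2 or more. Of the sets of cell type markers, only that of adipocytes is listed by gene, and the others are given as counts or summed levels. Alternatives were other scaling (RLE), DESeq2 1.42.0, no filter, a replicate block, each library left out, only the groups compared, a minimum log2 difference, and other FPKM settings. The FPKM values without female heart 3 and the fit on library totals without scaling were added after the data were seen. The 6 Iso-seq flow cells entered only through the annotation.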

Additional observations from a re-analysis of the deposited data

Results flagged for a closer look

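In 19 of 109 sets of 5 or 6 libraries of a tissue with a mean of at least 1 FPKM, 1 library lay far from the others by Dixon's criterion, which chance meets in about 1 set in 20. Of these, 10 were in female heart 3, out of 23 heart sets. The heart set of *Nnat* reached 1 FPKM only through that library, and without it there are 9 of 22. That library had *Nnat* at 89.6 FPKM (0.433 to 1.2 in the other hearts), *Sgce* at 28.9 (9.15 to 13.1), *Ube3a* at 21.1 (15.1 to 16.4) and its second locus at 11.7 (6.14 to 7.19), *Ndn* at 13.3 (3.63 to 4.99), *Peg3* at 10.7 (2.78 to 4.75), *Rian* at 10.7 (2.07 to 2.54), *Plagl1* at 8.9 (2.32 to 3.67), *Impact* at 7.46 (3.12 to 3.77) and *Inpp5f* at 5.75 FPKM (1.69 to 1.98).

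The other 9 were spread over 5 libraries. Female cerebellum 3 had *Rian* at 113 FPKM (54.7 to 73.7), *Ube3a* at 38.9 (16.9 to 23) and its second locus at 34.1 (10.1 to 16.6). Male colon 1 had *Rian* at 10.3 (6.48 to 7.51) and *Impact* at 6.54 (4.59 to 5.3). Male brain 1 had *Ube3a* at 32.7 (18.5 to 23.6) and *Sgce* at 20.2 (18 to 18.7). Female brain 1 had *Ddc* at 4.96 (1.38 to 2.57), with dopamine and serotonin markers at 15.4 summed FPKM. Female heart 1 had *Trappc9* at 3.41 FPKM (4.76 to 5.26).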

How the results depend on the processing

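Over 228 values of a gene in a tissue comparison, 167 kept their side of the threshold under every alternative and 61 crossed it under at least 1. Of the 167, 26 that were not called changed sign, so that 141 kept both. On library totals without scaling, an alternative chosen after seeing the data, 3 values called with one of the scalings changed sign, namely *Sgce* in heart against colon (-0.08), *Igf2r* in ovary (0.43) and *Snrpn* in testis against ovary (-0.01), and the counts called were 34, 12, 21, 23, 27 and 28 in the 6 tissue comparisons and 0 in the sex tests. With a log2 difference of at least 1 required, the counts of genes called were 7 in brain against cerebellum, 18 in heart against colon and 16 in ovary against the female somatic tissues. When single libraries were left out, there were 34 to 36 genes for neural tissues against heart and colon, 11 to 19 for brain against cerebellum (11 without male cerebellum 2), 24 to 30 for heart against colon, 21 to 27 for ovary, 25 to 29 for testis, 23 to 27 for testis against ovary and 0 to 1 for sex in heart, and 0 in the other sex tests. In neural tissues against heart and colon, the lower call of *Phlda2* was lost without female heart 3 (-1.82) or male heart 1 (-1.97), that of *Peg12* without male heart 2 (-0.70, adjusted p = 0.0692), and the higher call of *Dio3* without female cerebellum 1 (1.16, adjusted p = 0.0817). The cause was not tested. RLE scaling shifted the median log2 difference by -0.17 in neural tissues against heart and colon (26 higher and 10 lower), -0.11 in heart against colon, 0.13 in testis against the male somatic tissues and 0.17 in testis against ovary, and turned no call. Of 56 same-numbered pairs of tissues, 0 had a correlation of deviations above 0.1. Of 50 libraries compared with 3 of another tissue, 19 correlated best with their own number. The deviations were taken from means of few libraries, so this cannot exclude that same-numbered libraries share an animal. With the replicate number as a block, the counts were 35, 16, 28, 25, 27 and 26 in the 6 tissue comparisons and 0 in the sex tests. The number of genes highest in brain or cerebellum was 18 to 20 under the other FPKM settings, and 20 without female heart 3. Genes with few counts, such as *Phlda2* (91 in all libraries), are measured with little precision.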

Other observations

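*Kcnq1ot1*, the antisense RNA of the *Cdkn1c* cluster, had 0.305 to 1.38 FPKM in cerebellum and 0.502, 0.882 and 1.89 FPKM in ovary. The highest library of its tissue was female cerebellum 3 (1.38) in cerebellum, female heart 3 in heart (0.961 against 0.248 to 0.393 in the other hearts) and ovary 1 in ovary (1.89). *Ube3a* was also at its highest for the tissue in these 3 libraries, at 38.9, 21.1 and 33.1 FPKM.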
